A study of Mus musculus with 3 samples.

Results

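Lysosome and autophagy genes were followed in 3 single-cell RNA libraries of mouse bone marrow. The set was a list of 37 genes, taken by symbol from the 27998 gene identifiers of the matrices, and all 37 were found in each matrix. It held 13 hydrolases and their cofactors, 11 genes of the lysosomal membrane and proton pump, 3 transcription factors of the MiT/TFE family and 10 autophagy genes. The rule lists the genes by function and uses no measured value, but the list was chosen with earlier results of these data known.

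All 3 libraries held DAPI-negative, lineage-negative, c-kit-positive cells of C57BL/6 bone marrow, a sort that collects stem and progenitor cells and also keeps c-kit-positive mast cells. The control library came from 1 wild-type animal. A second animal gave both other libraries, non_mCherry from its reporter-negative and mCherry from its reporter-positive fraction. It carried Mx1-Cre and a heterozygous conditional knock-in of Runx1-Runx1t1 with mCherry downstream. Runx1-Runx1t1, also called AML1-ETO, is a fusion transcription factor of acute myeloid leukemia. Mx1-Cre is driven by an interferon-responsive promoter and was induced with poly(I:C). Reporter-negative cells of that mouse had met the same poly(I:C) and inherited the same alleles, and were sorted as lacking the reporter. Whether Cre had acted on the conditional allele in them was not tested. The sources do not say whether the wild-type mouse received poly(I:C) or carried Mx1-Cre, so these differences cannot be told apart from the genotype in any comparison with control. With 1 library per group no difference below has a replicate check, no test was run, and the 95% intervals cover counting error only.

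Lysosomes are acidic organelles in which hydrolases break down proteins, lipids and glycans delivered by endocytosis or autophagy. A V-type ATPase pumps protons into the lumen, and heavily glycosylated membrane proteins such as LAMP1 and LAMP2 line it. Autophagy wraps cytoplasm in a double membrane that later fuses with lysosomes. Factors of the MiT/TFE family (TFEB, TFE3, MITF) bind E-boxes in the promoters of many of these genes and switch them on together, and MITF is also needed for the development of mast cells. Granules of mast cells and basophils are related to lysosomes.

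The E-box letters CACGTG, and the longer palindrome TCACGTGA that forms the core of the element bound by the TFEB family, were looked up in RefSeq promoter windows (build GRCm38.p6, from 250 bases before to 50 bases after each annotated start). Both motifs read the same on both strands, and every TCACGTGA also holds a CACGTG. Windows were given for 31 members, and for Ctsb, Asah1, Atp6v1b2, Atp6v1h, Rb1cc1 and Becn1 none was matched. CACGTG was present in 11 of the 31 members, against 8.09% of 27025 genes with a window. TCACGTGA was present in 6 of them (Ctsa, Ctsd, Gla, Atp6v0d1, Atp6v1a and Mcoln1), against 1.12% of genes. Such a match is a string of letters and does not show that a factor bound there. Stretches that end at or before the start are shown for 6 members because their roles differ while the letters recur. These are RefSeq starts and can differ from the gene positions given below, so a stretch can lie inside them, as for Ctsd. Capitals mark CACGTG, with the base on either side where these complete TCACGTGA.
Ctsa, chr2:164833713-164833772, plus strand: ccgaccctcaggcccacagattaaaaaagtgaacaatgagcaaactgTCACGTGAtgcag
Ctsd, chr7:142387892-142387951, minus strand: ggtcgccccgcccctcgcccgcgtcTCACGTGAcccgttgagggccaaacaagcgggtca
Gla, chrX:134601192-134601255, minus strand: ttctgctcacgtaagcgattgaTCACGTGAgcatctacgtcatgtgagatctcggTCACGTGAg
Lamp1, chr8:13159095-13159160, plus strand: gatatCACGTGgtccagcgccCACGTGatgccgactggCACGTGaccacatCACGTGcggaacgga
Atp6v1a, chr16:44139357-44139416, minus strand: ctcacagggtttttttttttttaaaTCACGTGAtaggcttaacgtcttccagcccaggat
Mcoln1, chr8:3500448-3500507, plus strand: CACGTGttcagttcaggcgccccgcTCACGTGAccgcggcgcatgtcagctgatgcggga
Lamp1 carried 4 E-boxes in 66 bases and no TCACGTGA. In the mCherry library these 6 genes did not share a direction against control, as the values below show. Ctsd was higher, Lamp1 lower, and Ctsa and Atp6v1a within 1.1-fold. Mcoln1 was higher and Gla lower as plain quotients, but both stayed under the filter on level used below and are not counted over whole libraries. Atp6v0d1, whose stretch is not shown, was also within 1.1-fold.

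Counting used 8849 control, 7852 non_mCherry and 10172 mCherry cells, with 143311001, 86916116 and 92373057 UMIs, and median UMIs per cell of 15416, 9246.5 and 8178.5. Median mitochondrial shares were 1.874%, 1.871% and 2.496%. Between 24 and 42 cell barcodes were shared by any 2 libraries. Runx1t1, the ETO part of the fusion, was at 0.22 counts per 1000000 UMIs (CPM) in control, 0.31 in non_mCherry and 8.49 in mCherry. Kit was at 66.8, 56.6 and 269 CPM. The composition differed despite the common sort: 25.8% of non_mCherry cells (2023 of 7852) grouped as B cell progenitor-like, against 40 of 8849 control cells. The summed level of 8 monocyte-directed markers was 1009 CPM in control, 543 in non_mCherry and 89.8 in mCherry. That of 11 basophil and mast cell markers was 545, 719 and 11314 CPM, with Tpsab1 at 0 in control and non_mCherry. Cpa3 and Cma1 made up most of the mCherry sum: the other 9 of these markers summed to 446, 528 and 289 CPM, lowest in mCherry. Neutrophil-directed markers summed to 12238, 7409 and 1399 CPM, and 8 macrophage markers to 5.58, 4.14 and 14.6 CPM. Malat1, a nuclear RNA, was at 4826, 5315 and 19759 CPM, and 10 immediate early genes summed to 2632, 2988 and 18488 CPM. These values set the mCherry library apart, and their part in the differences below was not tested.

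Levels are given in CPM of UMIs summed over cells. CPM is not divided by gene length, so levels are compared between libraries or cell groups for 1 gene and not between genes. Folds are plain quotients of CPM. A gene was counted as higher or lower where the ratio of CPM + 5 passed 1.5-fold and it reached 20 CPM on at least 1 side. Gla, Atp6v0c, Mcoln1, Tfeb, Tfe3 and Atg7 stayed under 20 CPM in all 3 libraries and entered no such count over whole libraries. Some of them reached 20 CPM within a lineage and were counted there, such as Atg7 in stem and multipotent progenitor-like cells.

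Against control, the mCherry library had higher levels of autophagy genes, Mitf, Cd63, Lamp2 and Ctsd, and lower levels of the cathepsins Ctsz and Ctss, of Gusb and of Lamp1. Of the 31 members at 20 CPM, 10 were at least 1.5-fold higher and 4 at least 1.5-fold lower, with a median log2 ratio of 0.25. In sums over all cells, fewer cells of a type and less RNA per cell cannot be told apart. Over all 6576 genes at that level, 27.4% were higher, 22.0% were lower and the median was 0.08. The higher members were 1 of 12 hydrolases, 2 of 9 membrane and proton pump genes, Mitf and 6 of 9 autophagy genes. The lower members were 3 hydrolases and 1 membrane gene. Median log2 ratios were -0.08 for hydrolases (0.04 in stem and multipotent progenitor-like cells alone), 0.25 for membrane and proton pump genes and 1.21 for autophagy genes. The summed level of the 37 genes was 2295 CPM in control, 2121 in non_mCherry and 3307 in mCherry. Its parts went different ways: hydrolases summed to 1003, 910.1 and 859 CPM, membrane and proton pump genes to 752, 593 and 1289, and autophagy genes to 517, 591 and 1059.8. Cd63 alone made up most of the membrane difference.

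**Figure D1:**
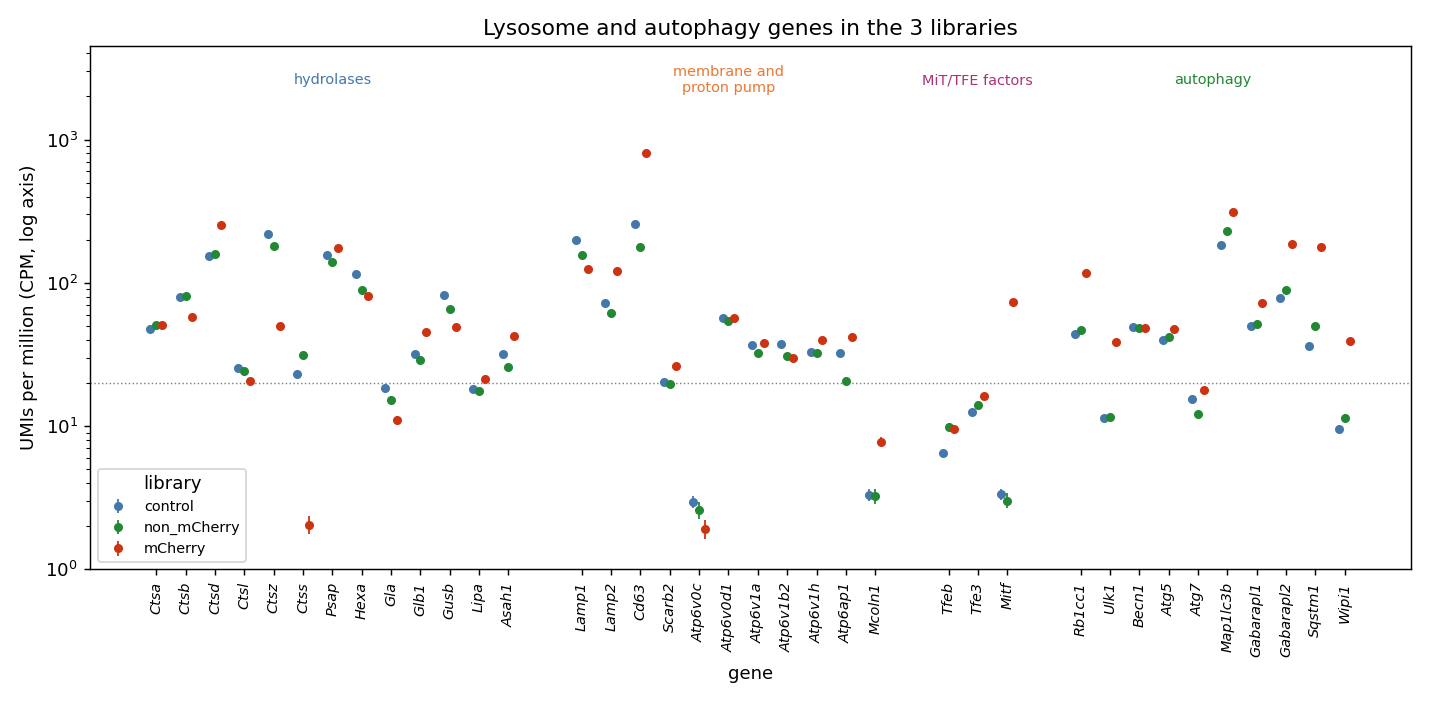
CPM of the 37 genes (log axis) in control, non_mCherry and mCherry, grouped by role; points are summed UMIs of 1 library each, bars are 95% Poisson intervals and the dotted line is the 20 CPM filter. Mitf, Cd63, Sqstm1, Wipi1 and Ulk1 stand apart upward in mCherry, Ctss and Ctsz downward, while most proton pump genes lie close together.

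Among the hydrolases, the aspartic protease cathepsin D stood apart from the cysteine cathepsins. Ctsd (chr7:142375911-142388038) was at 153 CPM in control, 159 in non_mCherry and 254 in mCherry, 1.66 times the control level (1.63 to 1.69). Ctsz (chr2:174427493-174439039), a carboxypeptidase of myeloid cells, was at 221, 181 and 50.04 CPM, 4.41-fold lower than in control (4.28 to 4.55). Ctss (chr3:95526786-95556403), a cathepsin of antigen-presenting cells, was at 23.2, 31.3 and 2.04 CPM, 11.4-fold lower (9.82 to 13.3). For both cysteine cathepsins mCherry was the low library, and control and non_mCherry lay within 1.4-fold of each other. Ctsb was at 79.7, 81.1 and 57.4 CPM and Ctsl at 25.3, 24.1 and 20.6, both lower in mCherry by less than the 1.5-fold threshold. Ctsa, a carboxypeptidase that also protects beta-galactosidase, was level at 47.7, 50.9 and 51.1 CPM.

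Enzymes and cofactors of glycan and lipid breakdown also split. Values are again in the order control, non_mCherry, mCherry. Gusb, beta-glucuronidase, was at 82.4, 66.1 and 48.9 CPM, 1.69-fold below control in mCherry. Hexa, the alpha chain of beta-hexosaminidase, was at 115, 89.3 and 80.7 CPM, and Gla, alpha-galactosidase A, at 18.5, 15.2 and 11.02 CPM. In all 3 of these genes control was highest and mCherry lowest. Glb1, beta-galactosidase, was at 32.0, 28.8 and 45.7 CPM, and Asah1, acid ceramidase, at 31.8, 25.9 and 42.3 CPM. Both were highest in mCherry, 1.43-fold and 1.33-fold above control. Psap, the precursor of the saposins that assist sphingolipid hydrolases, was at 157, 140 and 174 CPM, and Lipa, acid lipase, at 18.1, 17.4 and 21.3 CPM.

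At the lysosomal membrane, the LAMP proteins went opposite ways and the tetraspanin Cd63 was the member with the largest difference in CPM. Cd63 (chr10:128900989-128912822), a protein of late endosomes, lysosomes and secretory granules, was at 258 CPM in control, 179 in non_mCherry and 799.9 in mCherry, 3.11-fold above control (3.07 to 3.14) and 4.48-fold above non_mCherry (4.40 to 4.56). Lamp2 (chrX:38401357-38456454) was at 71.8, 61.7 and 121 CPM, 1.69-fold above control. Lamp1 (chr8:13159161-13175338) was at 199.98, 157 and 126 CPM, 1.59-fold below control (1.56 to 1.62). Lamp1 was lowest in the library where Lamp2 was highest. Scarb2, the receptor that carries glucocerebrosidase to the lysosome, was at 20.3, 19.6 and 26.2 CPM. Mcoln1, a lysosomal calcium channel, was at 3.31, 3.23 and 7.81 CPM, a 2.36-fold difference from control at levels under the filter.

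Most proton pump genes varied little among the libraries. Atp6v0d1 was at 56.5, 54.5 and 56.4 CPM, Atp6v1a at 36.8, 32.3 and 38.0, Atp6v1b2 at 37.6, 30.8 and 29.998, and Atp6v1h at 32.9, 32.4 and 40.1. All 4 encode pump subunits, and none passed 1.5-fold in any pair of libraries. Atp6ap1, an accessory subunit of the pump, was at 32.1, 20.7 and 42.1 CPM, so mCherry was 2.03-fold above non_mCherry (1.92 to 2.15) and 1.31-fold above control. Atp6v0c, the subunit of the proton-conducting ring, was at 2.97, 2.59 and 1.91 CPM. The genome holds processed copies of Atp6v0c, and reads that the authors' counting could not place could be missing from it, so its level is uncertain.

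Of the 3 MiT/TFE genes in the set, Mitf differed more than Tfeb and Tfe3. Mitf (chr6:97807052-98021349) was at 3.35 CPM in control, 3.01 in non_mCherry and 72.9 in mCherry, 21.8-fold above control (19.8 to 23.9) and 24.2-fold above non_mCherry (21.4 to 27.5). The gene has several promoters, and counts per gene do not separate their transcripts. Tfe3 was at 12.5, 14.1 and 16.2 CPM. Tfeb was at 6.52, 9.86 and 9.60 CPM, 1.47-fold above control in mCherry and 1.51-fold in non_mCherry.

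Ulk1, Rb1cc1 and Wipi1, which act early in autophagy, were higher in mCherry, and Becn1 was level. Ulk1 (chr5:110784488-110810097), the kinase that starts autophagy, was at 11.3 CPM in control, 11.7 in non_mCherry and 38.5 in mCherry, 3.40-fold above control (3.21 to 3.61). Rb1cc1 (chr1:6206197-6276648), the scaffold of the Ulk1 complex also called FIP200, was at 43.9, 47.1 and 118 CPM, 2.68-fold above control (2.60 to 2.77). Wipi1 (chr11:109573331-109611967), which binds the phosphoinositide of the forming membrane, was at 9.55, 11.4 and 39.1 CPM, 4.10-fold above control (3.85 to 4.36). In these 3 genes control and non_mCherry lay within 1.2-fold of each other and well below mCherry. Becn1, of the lipid kinase complex, was at 49.4, 48.1 and 48.2 CPM, and the conjugation genes Atg5 at 39.7, 41.5 and 47.6 and Atg7 at 15.3, 12.2 and 17.9 CPM differed little.

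Among the ubiquitin-like proteins that coat the autophagosome, Gabarapl2 (chr8:111940703-111953612) was at 77.9, 88.6 and 186 CPM, 2.39-fold above control (2.33 to 2.45). Map1lc3b, which encodes LC3B, was at 184, 228 and 314 CPM, 1.71-fold above control but 1.37-fold above non_mCherry. Gabarapl1 was at 50.1, 51.7 and 72.2 CPM, 1.44-fold above control. Sqstm1 (chr11:50199366-50210827), the cargo receptor p62 and itself a substrate of autophagy, was at 36.5, 50.3 and 178 CPM, 4.89-fold above control (4.74 to 5.05) and 3.54-fold above non_mCherry (3.43 to 3.67). These are transcript levels and say nothing of the rate of autophagy.

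Against non_mCherry cells of the same mouse, 12 of 31 members were at least 1.5-fold higher in mCherry and 2 lower, with a median log2 ratio of 0.31. Over 6566 genes, 27.1% were higher, 20.3% were lower and the median was 0.10. The 12 were Ctsd, Glb1 and Asah1 among hydrolases, Lamp2, Cd63 and Atp6ap1 among membrane and pump genes, Mitf, and Sqstm1, Wipi1, Ulk1, Rb1cc1 and Gabarapl2 among autophagy genes. The 2 lower ones were Ctsz, 3.62-fold, and Ctss, 15.4-fold. This comparison and that with control share the mCherry library. Between the other libraries, 0 of 27 members passed 1.5-fold in non_mCherry against control, where 2.22% of 5631 genes were higher and 0.870% lower. The member nearest that threshold was Atp6ap1, 1.55-fold lower as a plain quotient (1.47 to 1.64) and -0.53 on the log2 scale of CPM + 5. Cd63 followed, 1.44-fold lower in non_mCherry.

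**Figure D2:**
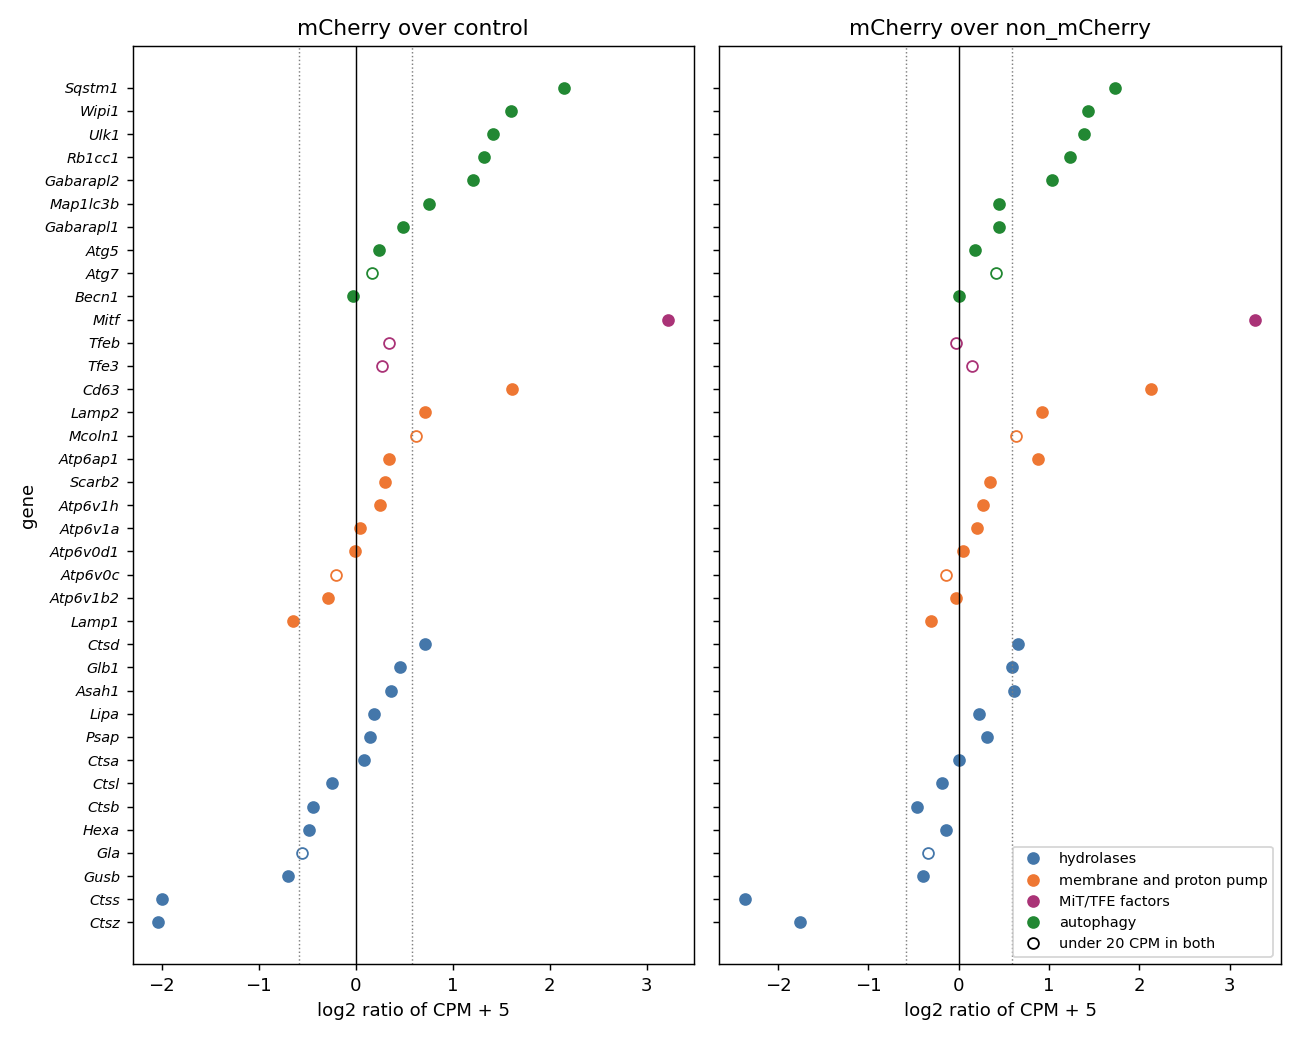
Log2 ratio of CPM + 5 of each gene in mCherry over control (left) and mCherry over non_mCherry (right), coloured by role; open circles are genes under 20 CPM on both sides and dotted lines mark 1.5-fold. No autophagy gene lies left of the lower line in either panel, and over control the hydrolases range from -2.04 (Ctsz) to 0.71 (Ctsd).

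The wider pathway was read from 4 lists of 150 further genes. Other hydrolases and their transport genes had 12 higher and 3 lower of 24 in mCherry over control, other membrane and pump genes 4 and 2 of 16, other autophagy genes 11 and 0 of 27, and genes of nutrient sensing at the lysosome 9 and 3 of 17. Over non_mCherry the counts were 12 and 3 of 23, 5 and 1 of 16, 9 and 0 of 26, and 9 and 2 of 17. These stand beside the shares of all genes given above. Genes named from these lists are among the 5 furthest up and the 5 furthest down.

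Gm2a, the activator protein of ganglioside breakdown, was at 561 CPM in mCherry against 110.4 in control. Trp53inp1, a stress gene of autophagy, was at 38.9 against 4.17 CPM, Ctsf at 25.9 against 3.13, Gnptab, which makes the mannose phosphate tag of hydrolases, at 122 against 31.1, and Foxo3, a transcription factor that acts on autophagy genes, at 100.1 against 24.9. Gm2a, Ctsf, Foxo3 and Gnptab were also among the genes furthest above non_mCherry. In the other direction, Ctsh was at 3.50 CPM in mCherry against 45.1 in control and 26.4 in non_mCherry. Tfec, the remaining MiT/TFE gene, was at 0.17 against 22.7 CPM in control, Arsb at 3.15 against 21.6, Ctse at 6.28 against 20.7 and Lamtor4 at 125 against 234. Against non_mCherry the 5 lowest were Ctsh, Ctse, Tcirg1 at 11.7 against 23.3 CPM, Lamtor4, and Lamtor2 at 139 against 216.

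Cells were grouped on genes other than the members and the wider lists, and clusters were named from marker genes. Lineages with at least 100 cells were compared within each library. Free RNA was not removed, so low levels in a lineage can include it. In control, the monocyte-directed lineage had the highest level of 13 of the 37 genes, cells with markers of T, NK and innate lymphoid cells (lymphocyte-like from here on) of 8, basophil and mast cell-like cells of 5, erythroid cells of 4, lymphoid-primed and neutrophil-directed cells of 3 each, stem and multipotent progenitor-like cells of 1 and megakaryocyte-like cells of 0. Of the 31 members at 20 CPM in at least 1 of these lineages, 12 were highest in monocyte-directed, 7 in lymphocyte-like and 4 in basophil and mast cell-like cells. Among all 7372 genes at that level the shares highest there were 5.33%, 26.8% and 6.36%. With other clusterings the monocyte-directed count was 9 or 10 of the 37. The lymphocyte-like group held 137 control cells and 718916 UMIs, so its values carry wide intervals.

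Hydrolases were mostly highest in monocyte-directed control cells. There Ctsz was at 355 CPM (86.2 in lymphocyte-like cells), Psap at 286 (45.3 in erythroid cells), Hexa at 189 (19.7 in erythroid cells), and Asah1 at 49.6 (6.38 in erythroid cells). Ctss was at 52.9 CPM in monocyte-directed and 50.6 in lymphoid-primed cells, and at most 2.85 CPM in neutrophil-directed, basophil and mast cell-like, erythroid and megakaryocyte-like cells. The library with the lowest Ctsz and Ctss, mCherry, held 2 monocyte-directed cells against 2239 in control and 1118 in non_mCherry. The part of these cell numbers in the levels was not tested. Glb1 was instead highest in basophil and mast cell-like cells, at 67.4 CPM. Ctsd spanned only 133 to 269.9 CPM over the 8 control lineages.

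Membrane genes had different lineages at the top. Cd63 was at 1398 CPM in basophil and mast cell-like control cells, 491 in neutrophil-directed, 239 in stem and multipotent progenitor-like, 220.3 in megakaryocyte-like, 94.6 in lymphocyte-like, 79.5 in monocyte-directed, 38.2 in erythroid and 33.2 in lymphoid-primed cells, a 42.1-fold span. Lamp1 was highest in monocyte-directed cells at 306 CPM and lowest in stem and multipotent progenitor-like cells at 117. Lamp2 was highest in neutrophil-directed cells at 90.1 CPM and lowest in erythroid cells at 21.3. Becn1 had the narrowest span of the 37, from 46.3 to 58.4 CPM. Mitf was at 8.63 CPM in basophil and mast cell-like control cells and at most 4.3 in any other control lineage. Tfeb had its highest value of all in B cell progenitor-like cells of non_mCherry, 28.7 CPM, where Cd63 was at 4.6 and Ctsd at 47.4.

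In non_mCherry, Cd63 was lower than in control in all 7 lineages with at least 100 cells in both. It was at 13.6 against 38.2 CPM in erythroid cells (2.81-fold lower, 2.37 to 3.35), 107 against 220.3 in megakaryocyte-like cells and 325 against 491 in neutrophil-directed cells. Ctss went the other way in monocyte-directed cells, at 84.5 against 52.9 CPM, 1.60-fold higher (1.498 to 1.70). Atp6ap1 was lower in basophil and mast cell-like cells, at 26.3 against 43.8 CPM, and in erythroid cells, at 16.0 against 26.8.

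**Figure D3:**
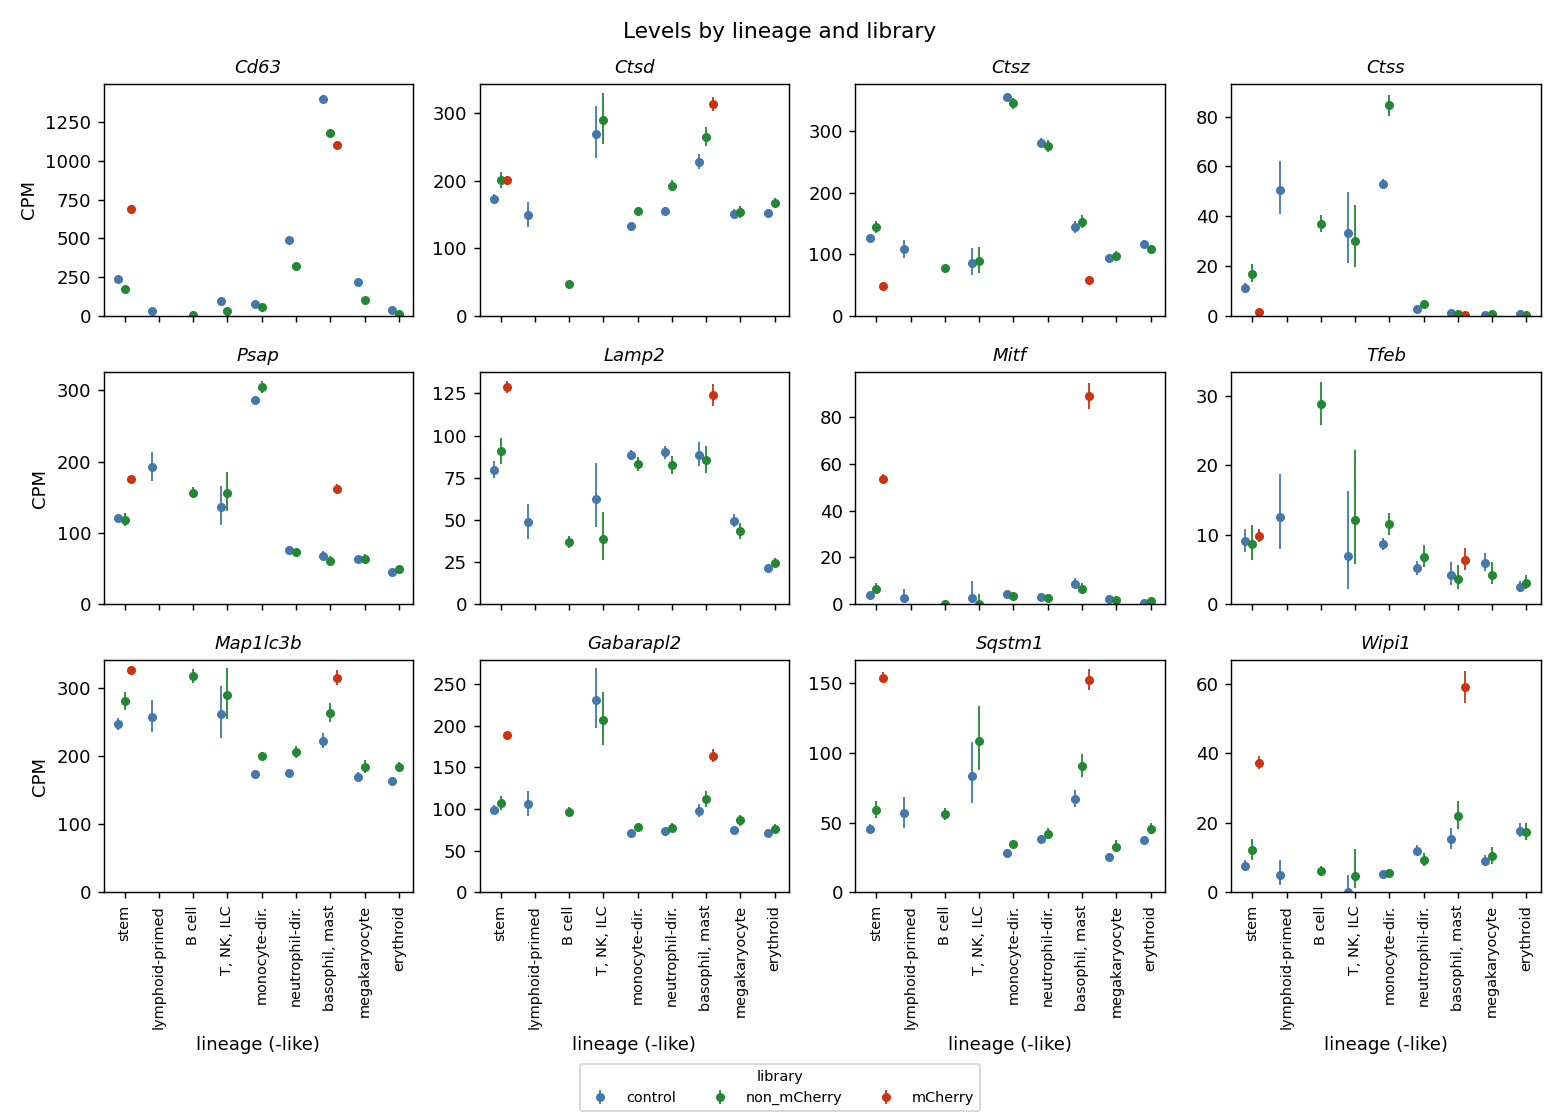
CPM of 12 of the genes by lineage (groups with at least 100 cells) in control, non_mCherry and mCherry, with 95% Poisson intervals. Cd63 peaks in basophil and mast cell-like cells and Ctsz and Psap in monocyte-directed cells, while Mitf, Sqstm1 and Wipi1 are highest in mCherry in both lineages that mCherry cells fill.

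Most named mCherry cells fell in stem and multipotent progenitor-like clusters (4967 cells) or a basophil and mast cell-like cluster (1502), and 3661 stayed unnamed. The same name did not mean the same cluster: stem and multipotent progenitor-like cells were cluster 3 in control and mainly clusters 0 and 4 in mCherry, in which Hlf was a leading gene. The stem and multipotent progenitor-like name also depended on the clustering. At Leiden resolution 1.5 it covered 1545 mCherry, 474 control and 136 non_mCherry cells, and at 0.5 it covered 1379, 0 and 22, which left no comparison. Basophil and mast cell-like cells of mCherry were almost all of cluster 5, led by Cma1 and Mcpt4, and those of control mainly of cluster 10, led by Prss34 and Mcpt8.

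Within stem and multipotent progenitor-like cells, 9 of 31 members were at least 1.5-fold higher in mCherry than in control and 2 lower (19.3% and 15.5% of 6513 genes). The median log2 ratio of the members was 0.27, and that of all genes 0.05. Autophagy genes made up 5 of the 9 higher members, and hydrolases both lower ones. Against non_mCherry, 7 of 30 were higher and 1 lower (21.1% and 12.6% of 6427 genes). Mitf was at 53.5 CPM in mCherry against 4.08 in control and 6.55 in non_mCherry cells of this name, 13.1-fold above control (9.96 to 17.7), where over all cells it was 21.8-fold. Cd63 was at 691 against 239 and 174 CPM, Sqstm1 at 154 against 45.4 and 59.1, Wipi1 at 37.3 against 7.59 and 12.1, and Ulk1 at 40.9 against 20.4 and 20.5. In each of these 5 genes mCherry lay above both other libraries at this resolution. At resolution 1.5 Mitf was at 90.7 against 5.10 and 8.73 CPM and Cd63 at 828 against 305 and 195, but Sqstm1 was at 102 against 60.2 and 106 and Ulk1 at 35.6 against 26.7 and 33.7, close to non_mCherry. Ctsd, in contrast, was then at 287 against 161 and 182 CPM. At the main resolution of 1.0 Ctsd was level with non_mCherry, at 202 against 201 CPM, and near control at 173. Ctsz was lower, at 48.3 against 127 and 144 CPM. Lamp1 was at 111 against 117 and 110 CPM, so its difference over all cells was not seen in this lineage, and at resolution 1.5 it was at 133 against 108 and 87.3.

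Within basophil and mast cell-like cells, 8 of 30 members were higher in mCherry than in control and 2 lower (25.0% and 17.1% of 6516 genes), and 7 of 31 were higher and 2 lower than in non_mCherry (28.4% and 14.9% of 6423 genes). Cd63 was at 1102 CPM in mCherry against 1398 in control and 1179 in non_mCherry, so here mCherry was the lowest library. Autophagy genes made up 6 of the 8 members above control. Psap was at 161 against 67.4 and 60.8 CPM, 2.40-fold above control (2.16 to 2.66). Mitf was at 89.0 against 8.63 and 6.42 CPM, Wipi1 at 59.0 against 15.3 and 21.9, and Sqstm1 at 152 against 67.0 and 90.9. Ctsz was again lower, at 57.7 against 144 and 153 CPM, and Gusb was at 41.3 against 71.3 and 61.8. Malat1 was at 24071 CPM in mCherry against 8482 in control cells of this lineage, and at 18904 against 6429 in stem and multipotent progenitor-like cells. Its part in these values was not tested.

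The mCherry cells formed 7 clusters of at least 100 cells. Of the 30 members at 20 CPM in at least 1 of them, 11 differed by at least 2-fold between the highest and the lowest cluster, a share close to the 32.3% of all 7301 genes at that level. Mitf was at 131 CPM in cluster 1, 90.7 in cluster 4, 89.2 in cluster 5, 58.2 in cluster 24, 37.6 in cluster 0, 30.1 in cluster 14 and 18.7 in cluster 23, a 7.03-fold span. Even the lowest of these exceeded the 3.35 CPM of control. Cluster 1 (2539 cells, unnamed, led by Ccl2 and Gadd45b) also had the highest Sqstm1, 296 CPM against 64.8 in cluster 23, and the highest Ctsd, 377 CPM against 149.6 in cluster 14. It had the lowest Ctsl, 9.99 CPM against 37.6 in cluster 24, and the lowest Ctsz, 37.2 CPM. Leading genes were ranked against all other cells of the 3 libraries. Ccl2 was at 414 CPM in cluster 1, 450 in cluster 5 and 1083 in cluster 23, so it does not set cluster 1 apart among mCherry cells. Cluster 14, whose leading genes are those of mitosis, had the lowest Cd63, 382 CPM, while clusters 1 and 5 were at 1102 and 1104.

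Cluster 23, 171 cells whose leading genes include the platelet genes Treml1 and Gp5, had the highest Hexa, 228 CPM against 68.5 in cluster 0, the highest Lamp1, 231 CPM, and the highest Ctsz, 104 CPM. It also had the lowest Mitf and Wipi1. Autophagy genes outside Sqstm1 and Wipi1 varied less over the 7 clusters. The widest of them were Ulk1, from 25.4 to 45.7 CPM, and Gabarapl1, from 58.9 to 95.5. Map1lc3b ranged from 272 to 327 CPM, Gabarapl2 from 164 to 208 and Rb1cc1 from 104 to 154. Without cluster 1 the counts of higher and lower members against control and non_mCherry stayed within 1.5 times those given above.

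**Figure D4:**
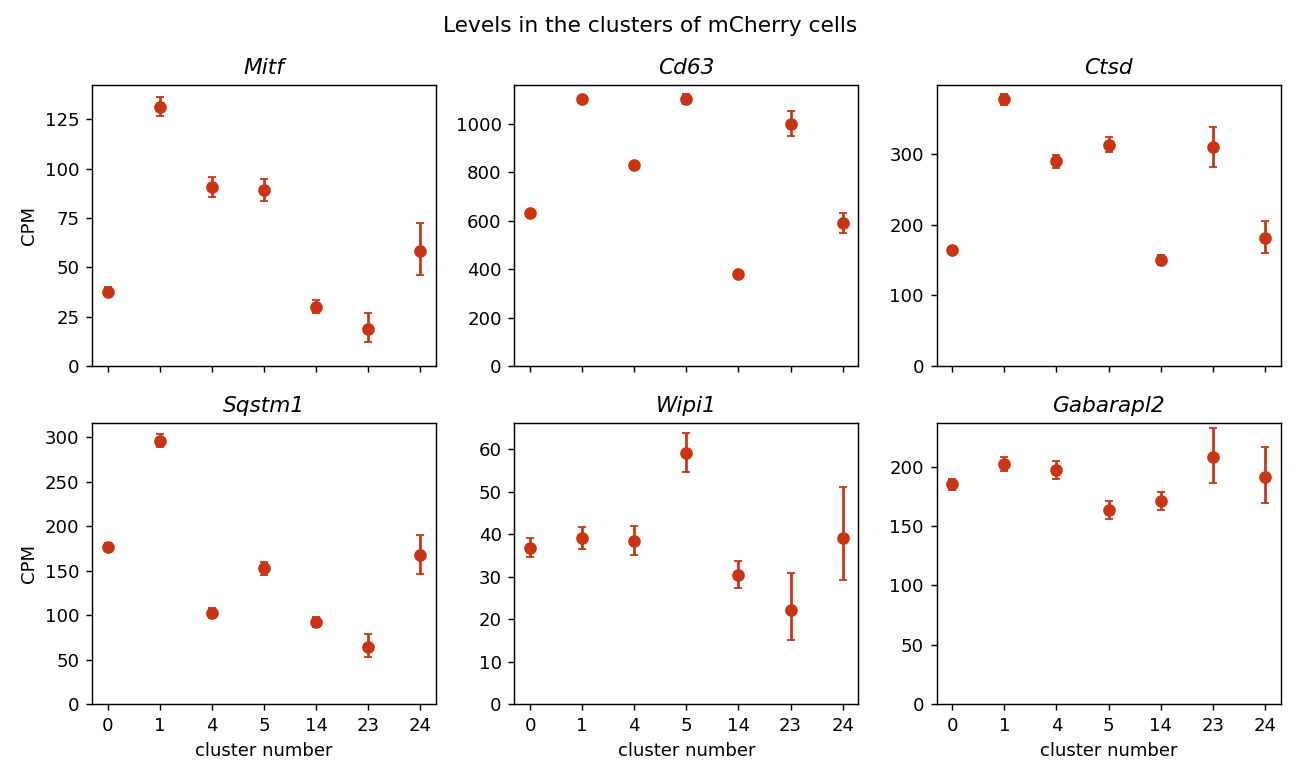
CPM of 6 genes in the 7 clusters of mCherry cells, with 95% Poisson intervals. Mitf and Sqstm1 are highest in cluster 1, Wipi1 in cluster 5, and Gabarapl2 is nearly level from 164 to 208 CPM.

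Cma1, a chymase of mast cell granules, was used to split the mCherry library. Cells with at least 10 Cma1 UMIs per 10000 were called Cma1-high. They numbered 558 and had a median of 6352 UMIs, against 8267.5 in the other 9614 mCherry cells. Cluster 5 held 505 of the 558 and also 996 other cells. The class is a range of a continuous level: 60 cells lay between 8.0 and 12.5 Cma1 UMIs per 10000. Both classes come from 1 library, so the ratios describe its cells only. Basophil and mast cell markers, which include Cma1 itself, summed to 35126 CPM in Cma1-high cells against 10275 in the others, and to 2528 against 191 without Cpa3 and Cma1. Kit was at 788 against 247 and Malat1 at 25606 against 19504, and their part in the ratios was not tested. Per cell, the median summed level per 10000 UMIs of stem and multipotent progenitor markers was 5.87 against 12.7, and that of monocyte-directed and macrophage markers was 0 in both classes. Neutrophil-directed markers had a median of 33.7 against 9.98. Of the 7 in the matrix only Elane was at 0 in Cma1-high cells, and which of the others carried the sum is not given here.

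In Cma1-high cells 4 of 30 members were at least 1.5-fold higher and 0 lower, with a median log2 ratio of 0.05. The median was -0.04 when mitochondrial, ribosomal protein, Malat1 and Cpa3 counts were taken out of the totals, and 0 members passed 1.5-fold when cells with any Cma1 UMI were set against cells with none. In that last split 1.03% of 6119 genes were higher and 0.0817% lower, so few genes of any kind passed. At the main Cma1 threshold, 5.41% of 6288 genes were higher, 5.10% were lower and the median was -0.03 with the full totals. The 4 were Cd63, at 1450.4 against 772 CPM (1.88-fold, 1.83 to 1.93), Ctsd, at 452 against 245 (1.84-fold, 1.75 to 1.94), Wipi1, at 66.2 against 37.9 (1.75-fold, 1.53 to 1.99), and Glb1, at 74.5 against 44.4 (1.68-fold, 1.48 to 1.89). Because 505 Cma1-high cells lay in the basophil and mast cell-like cluster 5, these ratios overlap with that cluster's own levels. For Cd63, Ctsd, Wipi1 and Glb1 those levels were also above those of stem and multipotent progenitor-like mCherry cells (62.9 against 41.5 CPM for Glb1). They were not all above unnamed cluster 1, where Cma1 was at 80.4 CPM against 4254 in cluster 5. Cluster 1 had Cd63 at 1102 against 1104 CPM in cluster 5 and Ctsd at 377 against 313. Wipi1, at 39.1 against 59.0, and Glb1, at 45.5 against 62.8, were lower in cluster 1. Mitf lay just under the threshold, at 109 against 71.3 CPM, 1.53-fold as a plain quotient and 0.58 on the log2 scale of CPM + 5. In cluster 1 Mitf was at 131 CPM.

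The other hydrolases and membrane genes differed less between the classes. Lamp1 was at 162 CPM in Cma1-high cells against 124, Ctsb at 72.5 against 56.7 and Hexa at 97.0 against 80.0. Lamp2, at 121 against 121 CPM, and Psap, at 161 against 175, did not follow them. Ctsl was at 15.8 against 20.8 CPM and Gusb at 39.3 against 49.3. Ctss had 1 UMI in Cma1-high cells, 0.26 CPM. Other than Wipi1, the autophagy genes that were higher in mCherry than in control were close in both classes: Map1lc3b was at 336 CPM against 313, Sqstm1 at 189 against 178 CPM, Rb1cc1 at 126 against 117, Ulk1 at 35.2 against 38.6 and Gabarapl2 at 179 against 187. For Sqstm1, Rb1cc1, Ulk1 and Gabarapl2 the interval of the ratio included 1, and for Map1lc3b it was 1.01 to 1.13. Without the Cma1-high cells the counts of mCherry against control and non_mCherry stayed within 1.5 times those given.

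Of the wider lists, other hydrolases had 3 higher and 0 lower of 22 in Cma1-high cells, and other membrane and pump genes 0 and 0 of 17. Other autophagy genes had 2 and 0 of 28, and nutrient sensing genes 1 and 1 of 16. Among all 6288 genes 5.41% were higher and 5.10% lower. For other autophagy and nutrient sensing genes 7.14% and 6.25% were higher, near that share. Optn, an autophagy receptor, was at 95.2 CPM against 16.9. Vps39, of the complex that tethers vesicles to lysosomes, was at 53.6 against 29.0, Dnase2a at 69.6 against 39.0 and Fnip1 at 55.1 against 31.2. The 5 furthest down were Sesn3 at 9.57 against 21.9 CPM, Trp53inp1 at 26.1 against 39.4, Sesn1 at 50.2 against 67.3, Foxo3 at 77.1 against 101 and Atp6v1d at 83.3 against 108.

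**Figure D5:**
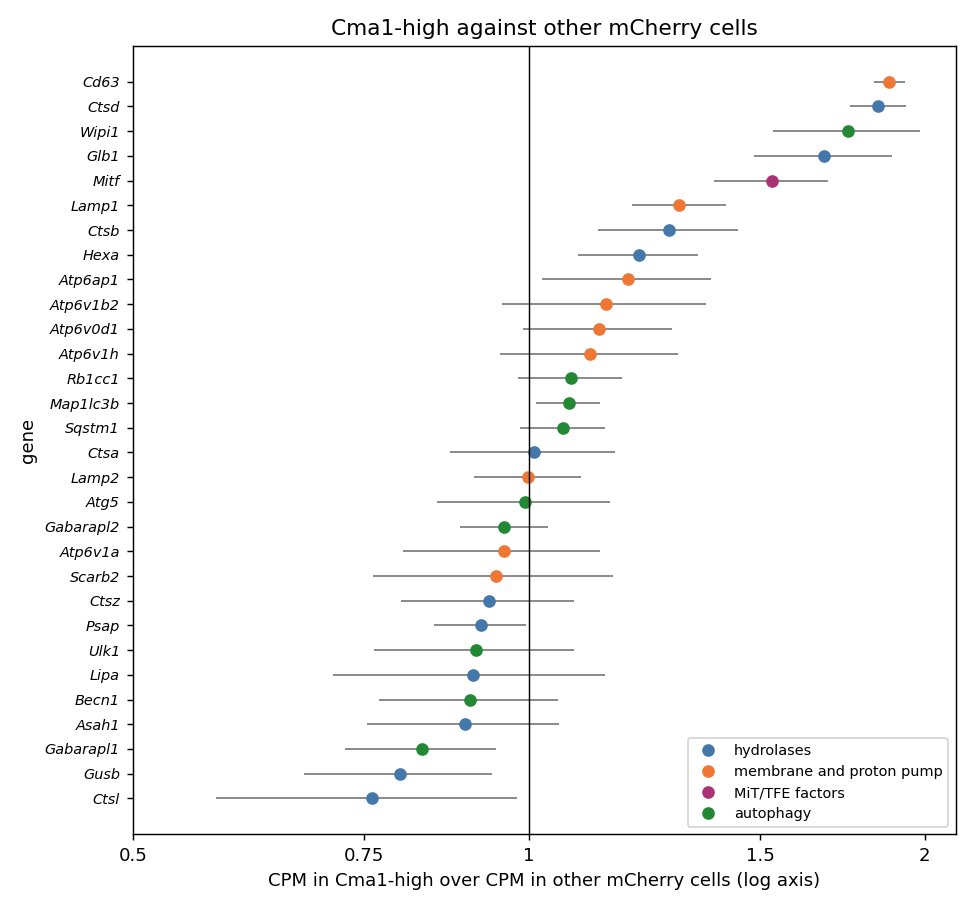
CPM in Cma1-high cells over CPM in the other mCherry cells (log axis) for the 30 members at 20 CPM, with exact 95% intervals for counting error. Cd63, Ctsd, Wipi1, Glb1 and Mitf lie above 1.5 as plain quotients, and most autophagy genes have intervals that include 1.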

How the data were processed

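The values rest on UMI counts per gene and cell barcode that the authors deposited as 1 sparse matrix per library. The submitters' processing notes name mm10 and Cell Ranger 6.1.2. Per the file headers the software version was 3.1.0, and which version produced the counts is not settled here. Barcodes with at least 1000 genes, at least 2000 UMIs and at most 10% mitochondrial UMIs were kept. Doublets scored with Scrublet in scanpy 1.11.5 at a common threshold of 0.25 or more were left out, 217 in control, 204 in non_mCherry and 247 in mCherry. This threshold was set after scores had been seen.

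For clustering, 2000 variable genes without the members and the wider lists, 30 principal components, 15 neighbours and Leiden resolution 1.0 (leidenalg 0.10.2) gave 33 clusters. A name needed a mean marker score of at least 0.75, 3 markers at least 2-fold up, and at least 1 own marker and no fewer own than foreign markers among the 10 leading genes. This scoring rule was set after the clusters had been seen, and shares may differ with other names.

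UMIs of a cell group were added up per gene and scaled by the group's total to CPM. Ratios were log2 of CPM + 5 on each side, and 20 CPM on either side was required for counts of genes past 1.5-fold. Intervals are exact Poisson intervals, or exact binomial splits for ratios (scipy 1.17.1), at 95%. The ratio step was tested on simulated data. Gene positions are from GENCODE M21 (GRCm38), which held 27722 of the 27998 identifiers, and promoter sequences from RefSeq.

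The 37 members, the 4 wider lists and the comparisons were chosen with earlier results of these data known. All members are named, and of the wider lists the 5 furthest up and the 5 furthest down per comparison with mCherry cells, some of which are not reported here. The closing section gives the effect of other cell filters, scalings, pseudocounts, CPM filters, folds, Cma1 thresholds and clusterings. Leaving out mCherry cluster 1, and recounting members in stem and multipotent progenitor-like cells under other clusterings, were chosen after seeing the data.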

Additional observations from a re-analysis of the deposited data

Results flagged for a closer look

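In 4 members the log2 ratio of CPM + 5 had opposite signs in 2 lineages, with at least 1.2-fold on each side and both counting intervals clear of no difference. The rule was applied to the members only, so no share of all genes stands beside this count, and it is not read as a result about the members. The difference between the lineages was not tested, since each lineage is 1 sum per library. Cd63 in mCherry over control was 1.51 in stem and multipotent progenitor-like cells and -0.342 in basophil and mast cell-like cells. Both names covered mainly different clusters in mCherry and control. Ctsb in mCherry over non_mCherry was 0.318 in basophil and mast cell-like cells and -0.345 in stem and multipotent progenitor-like cells. Ctsl in non_mCherry over control was 0.411 in basophil and mast cell-like cells and -0.325 in erythroid cells. Gla in non_mCherry over control was 0.421 in basophil and mast cell-like cells and -0.294 in monocyte-directed cells.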

How the results depend on the processing

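Of 1258 member values recomputed under the alternatives, 1040 stayed within their counting interval, 218 moved and 0 reversed. Reversed meant a change of sign in a member at least 1.5-fold apart in the main setting. Sign changes of smaller ratios were counted with the other 2 classes. Values under other clusterings were not among the 1258, and the cause of the moves was not tested. With a threshold of 2-fold, the members lower in mCherry than in control numbered 2, those higher than in non_mCherry 7, and those higher in Cma1-high cells 0. Of all genes, 10%, 14.1% and 2.24% passed it in the same directions. In stem and multipotent progenitor-like cells alone, 2 members were lower than in control, 7 higher than in non_mCherry and 1 lower than in non_mCherry. The shares of all genes there were 15.5%, 21.1% and 12.6%. With a filter of 50 CPM, fewer members entered, and 7 were higher and 1 lower than in non_mCherry. Of all genes at that level, 26.8% were higher and 25.9% lower. In non_mCherry against control, 1 member was lower with a pseudocount of 1 CPM and 1 with the mean of per-cell CPM. The shares of all genes lower were 1.01% and 1.66%. Comparing cells with any Cma1 UMI against none gave 0 members higher, where 1.03% of 6119 genes were higher. At Leiden resolutions of 0.5 and 1.5 the stem and multipotent progenitor-like mCherry cells numbered 1379 and 1545 in place of 4967. At 1.5 the members lower there than in non_mCherry numbered 4 in place of 1, with 136 non_mCherry cells of that name. The share of all genes lower at that setting is not given here, so this count is not read as a result about the members. Keeping the members and wider lists among the clustered genes moved Cd63 in basophil and mast cell-like control cells from 1398 to 1363 CPM. It left 1 member lower than in control in stem and multipotent progenitor-like cells, a count also given without its share of all genes. Taking mitochondrial, ribosomal protein, Malat1 and Cpa3 counts out of the totals turned the genes past 1.5-fold in Cma1-high cells from 340 higher and 321 lower to 359 higher and 535 lower, and the median of all members there went from 0.05 to -0.04. The hydrolase median of mCherry over control, -0.08, ranged from -0.44 with a filter of 50 CPM to 0.04 in stem and multipotent progenitor-like cells, and over non_mCherry, -0.07, from -0.17 to 0.08. The autophagy median over control ranged from 0.69 in stem and multipotent progenitor-like cells to 1.25. No paired analysis was possible because each group was 1 library. Members under 20 CPM and small lineages are limited by depth.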
